A study of Caenorhabditis elegans with 2 samples.

Results

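The 6 genes described here encode proteins of the nuclear lamina and inner nuclear envelope of Caenorhabditis elegans, and partners that act on them: the lamin gene lmn-1, the LEM domain genes emr-1, lem-2 and lem-3, the BAF gene baf-1 and the BAF kinase gene vrk-1. They were taken by name, and all 6 matched a gene among the 19973 nuclear protein-coding genes of the Ensembl annotation of WBcel235. The measurement was the binding of LIN-54, mapped by ChIP-seq, the sequencing of DNA pulled down with a protein, in whole animals, with 2 biological replicates of 1 library each in 1 group. All animals were of strain OP743, carried unc-119(tm4063) and the integrated transgene wgIs743, a lin-54 fosmid tagged with TY1, EGFP and 3xFLAG together with unc-119(+), and were young adults of mixed sex, 65 hours old, synchronised as starved L1 larvae. The labels conflict on the antibody: the sample description gives an anti-GFP antibody, which would pull down the tagged protein, and the antibody field gives lin-54, which could also take the endogenous protein. The values are for this 1 transgenic line, and binding in the germline and in somatic cells cannot be told apart in whole worms. No second condition was measured, so the questions are which of these promoters LIN-54 occupied, how strongly, and how closely the replicates matched.

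The nuclear lamina is a filament meshwork of lamin under the inner nuclear membrane. Emerin and LEM2 sit in that membrane and carry a LEM domain, a short fold that holds BAF, and BAF in turn bridges DNA, so that chromatin is tied to the envelope. VRK1 phosphorylates BAF and loosens these ties when the envelope breaks down in cell division, and in C. elegans LEM-4 acts against VRK-1 so that the envelope can close again. LIN-54 is a DNA-binding subunit of the DREAM complex, which also holds an E2F protein and is known for control of cell division genes. It contacts the CHR element, named for the homology region of cell cycle genes, which was searched as TTNGAA with T or C at the N. The E2F site was searched as TTNNCGC with C or G at each N, and both motifs were searched on both strands, with overlapping matches kept. A match describes the sequence and does not show that a protein sat there.

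The promoters of lem-2, baf-1 and vrk-1 are shown because they differ in both binding and motifs: lem-2 had a strong peak with both motifs, baf-1 a peak with neither near its summit, and vrk-1 no peak that passed the study's filter. Each is the plus strand of the ce11 (WBcel235) reference in the sense of the gene, runs to the base before the annotated 5′ end, and has the E2F and CHR matches in capitals. The lem-2 stretch is chrII:14063211-14063449, that of baf-1 is chrIII:9467227-9467463, and that of vrk-1 is chrII:5921667-5921966.
lem-2: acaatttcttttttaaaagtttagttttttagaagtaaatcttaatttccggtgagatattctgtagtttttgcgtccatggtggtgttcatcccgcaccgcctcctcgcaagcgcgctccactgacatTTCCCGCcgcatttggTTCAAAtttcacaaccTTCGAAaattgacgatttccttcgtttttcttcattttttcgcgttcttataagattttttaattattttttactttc
baf-1: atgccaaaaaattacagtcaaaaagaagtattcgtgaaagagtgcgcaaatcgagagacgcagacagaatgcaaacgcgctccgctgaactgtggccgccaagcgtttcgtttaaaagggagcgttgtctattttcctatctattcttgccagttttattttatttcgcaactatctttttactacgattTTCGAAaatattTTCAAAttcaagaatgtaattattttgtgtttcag
vrk-1: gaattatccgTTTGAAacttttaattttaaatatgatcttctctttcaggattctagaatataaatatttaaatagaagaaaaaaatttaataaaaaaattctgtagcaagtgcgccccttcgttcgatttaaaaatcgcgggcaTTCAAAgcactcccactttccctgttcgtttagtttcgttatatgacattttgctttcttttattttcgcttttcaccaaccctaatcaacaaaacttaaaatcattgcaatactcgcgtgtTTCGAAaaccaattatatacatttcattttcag

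LIN-54 occupied the promoters of the 3 LEM domain genes and of baf-1, and not those of lmn-1 and vrk-1 at the filter of the study. The promoter window of a gene covered 1000 bp before and 300 bp after any of its annotated 5′ ends, and a gene was called bound when the summit of an IDR peak, a peak that passed the authors' irreproducible discovery rate procedure, lay in that window. By this rule 4 of the 6 genes were bound (66.7%, Wilson 95% interval 30.0% to 90.3%), against 14.3% of all protein-coding genes (2861 genes, interval 13.8% to 14.8%). In each of the 3 relaxed lists, of 30000 candidate regions apiece, all 6 genes had some region in the window. The share of all genes with one was 38.1% in the pooled list, 40.2% in replicate 1 and 39.9% in replicate 2. Of the 7600 genes with a pooled region, 37.6% were bound. These are counts of named genes beside a background, and no test was run on them. The interval for the 6 genes treats them as random draws, but they were picked by name, so it is no test against that background.

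The signal value that the authors' peak caller gave each region ranked lem-3 first in the pooled list at 372, then lem-2 at 325, baf-1 at 229 and emr-1 at 155. The strongest region in the vrk-1 window followed at 76.1 and that of lmn-1 at 40.1. The weakest IDR peak had a signal of 98.2, so the filter fell between emr-1 and vrk-1. How the caller computes the signal is not stated and read depth is unknown, so the replicates were compared by rank among the 30000 regions of each list. The order of the 6 genes was the same in both replicates. The ranges spanned by the replicates did not overlap between neighbours in that order down to vrk-1, although lem-3 (ranks 721 and 520 in replicates 1 and 2) and lem-2 (858 and 728) came close. Those of vrk-1 (11428 and 3313) and lmn-1 (15778 and 5096) overlapped. In replicate 1 alone, the order of the last 2 rests on the window edge: it had a region of signal 34.6 and rank 6997 at -1001 bp from lmn-1, just outside its window, which would place lmn-1 above vrk-1. All 6 genes ranked higher in replicate 2 than in replicate 1, by a small step in the 4 bound genes. In the other 2 the ranks were many places apart but belonged to different sites. For vrk-1 the strongest region lay at -750 bp in replicate 1 and -176 bp in replicate 2, and for lmn-1 at -129 and -642 bp.

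**Figure D1:**
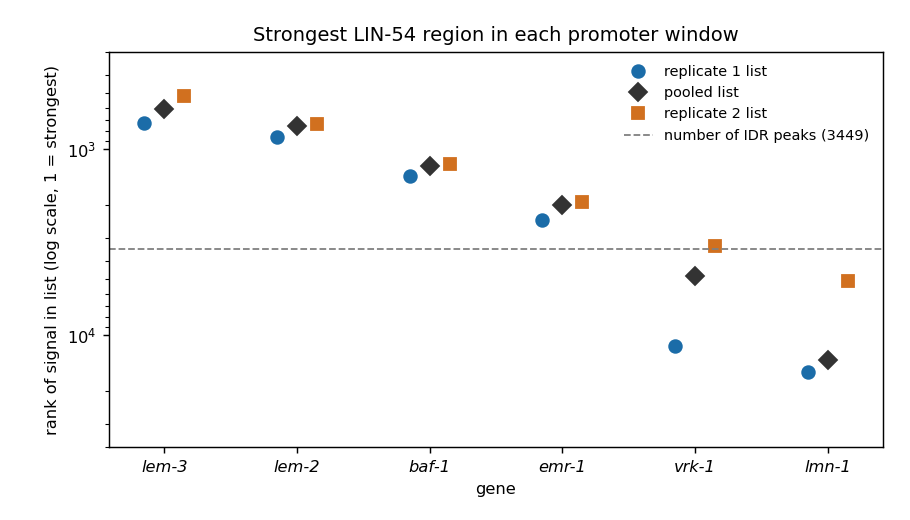
Rank of the strongest region in the promoter window of each gene (y axis, log scale, 1 the strongest of 30000) in the lists of replicate 1 (circles), replicate 2 (squares) and the pooled replicates (diamonds), with a dashed line at the 3449 IDR peaks. The 4 bound genes lie above the line in every list, vrk-1 crosses it in replicate 2 alone and lmn-1 lies below it throughout.

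The inner membrane proteins LEM-2 and emerin are known to share functions in worms, and their genes were both bound, at different levels. The lem-2 gene (WBGene00002275) lies on the plus strand of chromosome II from 14063450 to 14066646. Its IDR peak, chrII:14063211-14063435, had a signal of 325 and rank 751, with 151 in replicate 1 and 169 in replicate 2. The summit at 14063333 was intergenic, at -117 bp from the 5′ end (negative being upstream), in the window of no other gene. The replicate summits lay 14 bp apart, close to the median of 15 bp over all IDR peaks in promoter windows found in both replicate lists.

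The emr-1 gene (WBGene00001309, chromosome I, plus strand, 1842445 to 1843227) carried a weaker peak. Its IDR peak (1841898 to 1842233) had a signal of 155 and rank 1995, with 69.5 in replicate 1 and 84.3 in replicate 2, and the replicate summits were 9 bp apart. The summit lay at -379 bp from the 5′ end, in the 479 bp between emr-1 and egl-30, a G protein alpha subunit gene on the same strand. The pooled region in egl-30's own window nearest to it, at -2503 bp from emr-1, had a signal of 75.7 and was not an IDR peak. Among the 2283 IDR peaks in promoter windows the median signal was 198, with quartiles of 129 and 353, so lem-2 lay in the upper and emr-1 in the lower middle of that range.

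LEM-3 is a LEM domain endonuclease of DNA repair that cuts chromatin bridges in dividing cells, and unlike emerin it is not a membrane protein. Its gene (WBGene00002276, chromosome I, minus strand, 9578526 to 9581267) had the strongest of the 4 peaks. The peak (9581538 to 9581744) had a signal of 372 and rank 607, with 167 in replicate 1 and 212 in replicate 2. The summit was at -377 bp from the 5′ end, in the 518 bp that separate lem-3 from K07A1.17 on the same strand, and no other window held it. The replicates placed it 18 bp apart.

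BAF-1 is the small DNA-bridging protein that the LEM domains hold. Its gene (WBGene00000235, chromosome III, plus strand, 9467464 to 9468058) carried an IDR peak at chrIII:9467227-9467358 with a signal of 229 and rank 1223, and with 105 in replicate 1 and 120 in replicate 2. The summit was at -164 bp from the 5′ end and the replicate summits were 12 bp apart. This was the only one of the 4 peaks that also lay in the window of a further gene, tag-342, which follows baf-1 on the same strand. The summit was at -857 bp from the 5′ end of tag-342, and baf-1 was the nearest gene. The next IDR peak upstream, with a signal of 163, lay at -1853 bp from baf-1 in the windows of B0464.6 and B0464.9, outside that of baf-1.

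VRK-1, the kinase that releases BAF, had a weaker region at its promoter (WBGene00017895, chromosome II, plus strand, 5921967 to 5924838). The strongest pooled region, chrII:5921657-5921992, had its summit at -142 bp from the 5′ end, a signal of 76.1, rank 4788 and a −log10 q value of 2.52. The replicates differed here: the region at this place had a signal of 54.6 and rank 3313 in replicate 2, with the summit at -176 bp, but 20.1 and rank 17863 in replicate 1, at -133 bp. In replicate 1 the strongest region of the window, with 26.4, lay at -750 bp in the 3′ UTR of the upstream gene ptp-2. By replicate 2 alone, with its 3449 strongest regions taken as the peaks, vrk-1 was bound and 5 of the 6 genes were called, against 14.4% of all genes. By replicate 1 alone 4 were called, against 13.8%.

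No region in the lmn-1 window stood out, although lmn-1 is the sole lamin gene of the worm. The gene (WBGene00003052, chromosome I, plus strand, 8763041 to 8765631) has 3252 bp of intergenic sequence before it, and its window held 4 pooled regions with signals between 28.8 and 40.1. The strongest, at -985 bp, barely exceeded the next, at -40 bp with 39.5. Inside the window the replicates named different places as strongest, at -129 bp with 21.8 in replicate 1 and at -642 bp with 40.2 in replicate 2. Just outside it, at -1001 bp, replicate 1 had a stronger region of 34.6 that overlapped the pooled region at -985 bp. Replicate 2 had 20.2 at -1106 bp. The strongest pooled region within 3000 bp of the gene lay just past its 3′ end, at 8765638, with a signal of 82.5 and rank 4283. It fell in the window of the next gene, trt-1, and ranked 4678 in replicate 1 and 3764 in replicate 2. Its pooled signal was below that of the weakest IDR peak, 98.2, so it was not in the IDR list either.

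**Figure D2:**
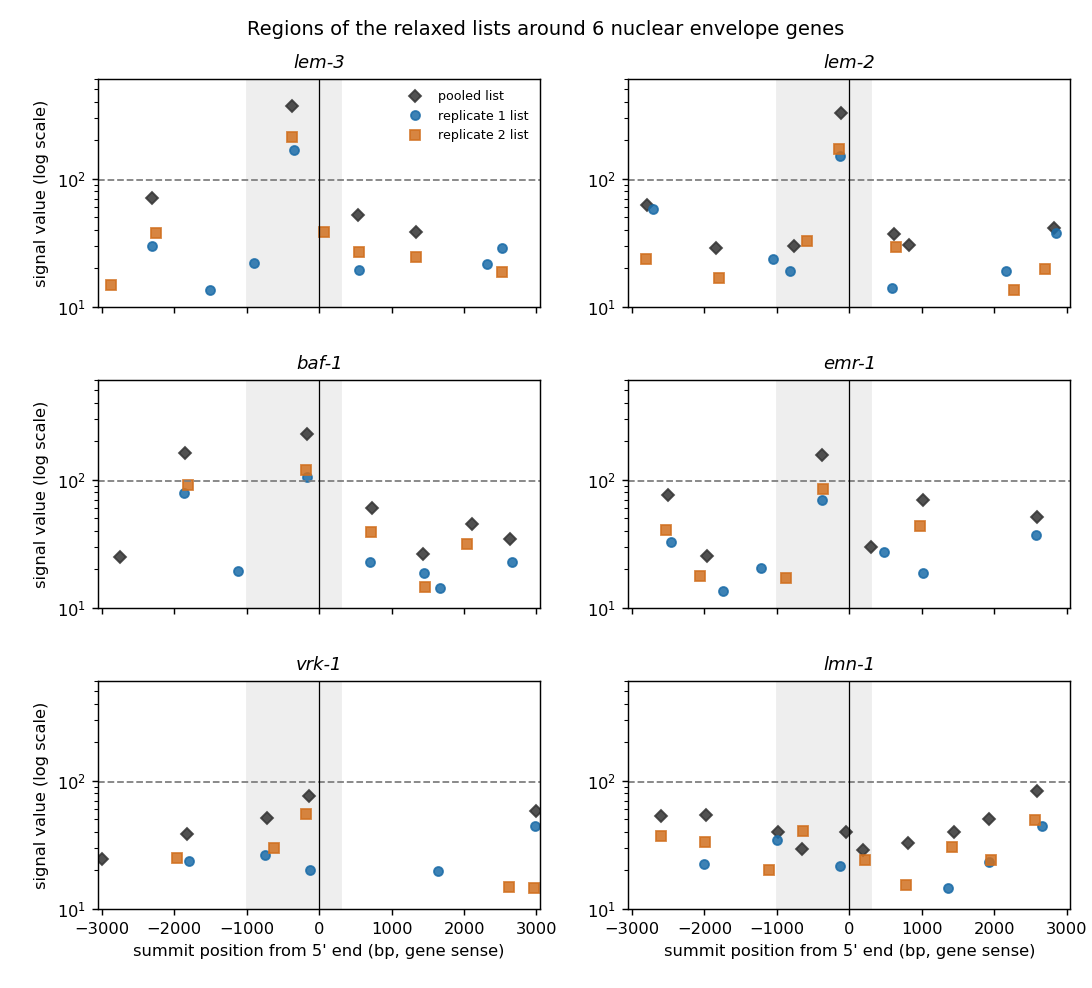
Signal value (y axis, log scale) of every relaxed region against the distance of its summit from the first annotated 5′ end (x axis, bp, negative upstream) for the pooled list (diamonds), replicate 1 (circles) and replicate 2 (squares); grey marks the promoter window and the dashed line the weakest IDR peak, 98.2, which applies to pooled values. The bound genes each show 1 point per list far above the rest of the window, while at vrk-1 and lmn-1 the strongest region is less than 2 times the next in every list that has a second.

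In each bound promoter window the strongest region stood well above any other region of the same list. At lem-2 the peak was 10.8 times the next region of the window in the pooled list, 7.83 times in replicate 1 and 5.19 times in replicate 2. At emr-1 the pooled ratio was 5.22, and lem-3 and baf-1 had no second pooled region in the window. For baf-1 this holds inside the window only, since the IDR peak at -1853 bp had a signal of 163 against 229. At vrk-1 the ratio was 1.49 in the pooled list, 1.31 in replicate 1 and 1.84 in replicate 2. At lmn-1 it was 1.01 in the pooled list and 1.67 in replicate 2, and replicate 1 had a single region in the window. Within the gene bodies outside the windows, the pooled regions of the members did not exceed 52.7, a value found in lem-3. Most relaxed regions had a set width (336 bp in 94.2% of the pooled list), with the summit at the middle. The emr-1 peak is of this kind, whereas those of lem-2 (225 bp), lem-3 (207 bp) and baf-1 (132 bp) were narrower in the pooled list. In the replicate lists the baf-1 region also had the set width, 340 bp in replicate 1 and 304 bp in replicate 2.

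The replicates matched closely at the 4 bound genes. The log2 ratio of the replicate 2 signal to the replicate 1 signal was 0.17 at lem-2, 0.19 at baf-1, 0.28 at emr-1 and 0.34 at lem-3. Over the promoter IDR peaks found in both replicates the median was 0.07, with 5% of peaks below -0.71 and 5% above 0.80. All 4 genes were thus on the side of replicate 2 but inside that range. Both the 4 peaks and the range came from IDR peaks, which were exactly the 3449 strongest pooled regions. Selection by pooled signal, which draws on both replicates, could itself favour agreement, and this was not tested. The signals of separate lists may differ in scale, so the ratios describe the lists and are not tested.

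The DREAM motifs divided the bound genes into 2 pairs. The summits at lem-2 and lem-3 each had 1 E2F site and 2 CHR elements within 50 bp, while those at emr-1 and baf-1 had neither motif within that distance. Among the 2283 IDR peaks in promoter windows, 21.1% had an E2F site, 38.7% a CHR element, 12.1% both and 52.3% neither. An E2F site with 2 or more CHR elements was present at 2.76% of them, and at 0.807% of the 26151 pooled regions that overlap no IDR peak. This class was outside the planned motif counts and has the form seen at lem-2 and lem-3, so its shares are description only. The pair with both motifs was also the pair with the stronger signals, which is an observation on 4 genes.

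At lem-2, as printed above, the E2F site TTCCCGC (14063340 to 14063346) was centred 10 bp downstream of the summit. The CHR elements, TTCAAA on the plus strand (14063356 to 14063361) and TTCGAA (14063372 to 14063377), were centred 25.5 and 41.5 bp downstream, with 9 bases between the E2F site and the nearer element. At lem-3 the E2F site (chromosome I, 9581655 to 9581661) was centred 14 bp from the summit and directly abutted a CHR element (9581662 to 9581667), with 0 bases between them. The second element there lay on the other side of the summit, 24.5 bp away. Of the promoter IDR peaks, 7.4% had the motifs fewer than 10 bases apart within 50 bp of the summit, against 1.14% of the regions that overlap no IDR peak. The limit of 10 bases was likewise outside the planned counts, and both genes meet it by the gaps given above.

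At emr-1 the motifs lay just outside the 50 bp limit: an E2F site was centred 57 bp upstream of the summit, and CHR elements 74.5 bp downstream and 86.5 bp upstream. At baf-1 the nearest CHR elements, the capitals near the end of its printed sequence, lay 119.5 and 131.5 bp from the summit, and its nearest E2F match was 328 bp away. The vrk-1 region had a CHR element centred 10.5 bp from its summit and no E2F match anywhere in the window. The weak lmn-1 region at -985 bp had an E2F match 3 bp from its summit, and a second match lay at -262 bp, 222 bp from any pooled summit. Thus lmn-1 had E2F matches without an IDR peak, and emr-1 and baf-1 an IDR peak without a match within 50 bp of it. Over whole windows at the first 5′ end, 32.1% of all protein-coding genes had an E2F match and 99.1% a CHR match, so a CHR match in a window is nearly universal.

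**Figure D3:**
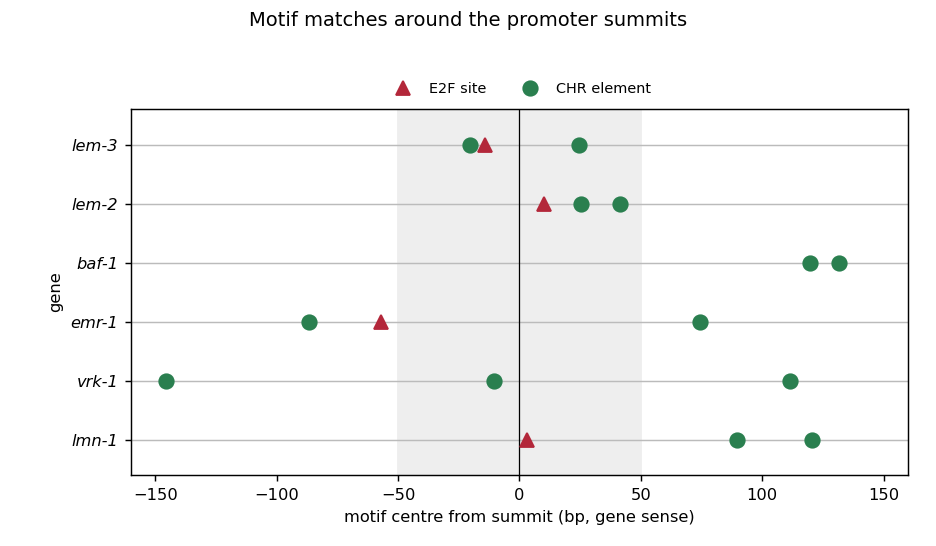
Position of each E2F site (triangles) and CHR element (circles) within 150 bp of the summit (x axis, bp from the summit in the sense of the gene) for the IDR peaks of 4 genes and the strongest pooled region of vrk-1 and lmn-1; grey marks the 50 bp on either side. Both motifs lie in the grey band at lem-3 and lem-2 and neither does at baf-1 and emr-1.

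Base composition differed among the bound summits as well. The 101 bp around the summit were 54.5% G and C at lem-2 and 52.5% at both emr-1 and baf-1, above the upper quartile of promoter IDR peaks (50.5%, median 45.5%). At lem-3, with the strongest signal, they were 40.6%, near the lower quartile of 39.6%.

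The 4 bound summits were all intergenic, between -379 and -117 bp from the annotated 5′ end, and the annotated 5′ end lay 0 to 15 bp before the start codon. Many worm transcripts are trans-spliced, so the annotated 5′ end can be a splice acceptor rather than the start of transcription. The letters TTNCAG, the usual worm acceptor, stood directly before the 5′ end at emr-1, baf-1 and vrk-1, as seen at the end of the printed baf-1 and vrk-1 sequences, against 19% of all genes. At lmn-1 and lem-3 the last letters were AG without the full match, and at lem-2 they were not AG (27.6% of all genes have AG there). The distances given above are thus measured from the annotation and need not be distances from the start of transcription.

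Among all protein-coding genes ordered by the strongest pooled region in the window, lem-3 was number 758, lem-2 930, baf-1 1379, emr-1 1967, vrk-1 3476 and lmn-1 5666. The median signal of the 6 was 192, whereas the median gene had no region in the window. The gene outside the group most like each bound member was the one with the smallest summed difference of log2 signal over the 2 replicates. For lem-3 this was the peak shared by pabp-2 and C17E4.6 (166 and 215 in replicates 1 and 2), for lem-2 that of R04F11.2 and R04F11.5 (152 and 168). For baf-1 it was Y75B12B.3 (105 and 119), and for emr-1 the peak of rps-13, a small ribosomal subunit gene, and nfx-1 (69.0 and 84.01). These summed differences ran from 0.00892 for baf-1 to 0.0282 for lem-3. Between 11 and 20 of 2831 genes lay within a summed difference of 0.1 of each member, so each level was shared by some other genes.

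**Figure D4:**
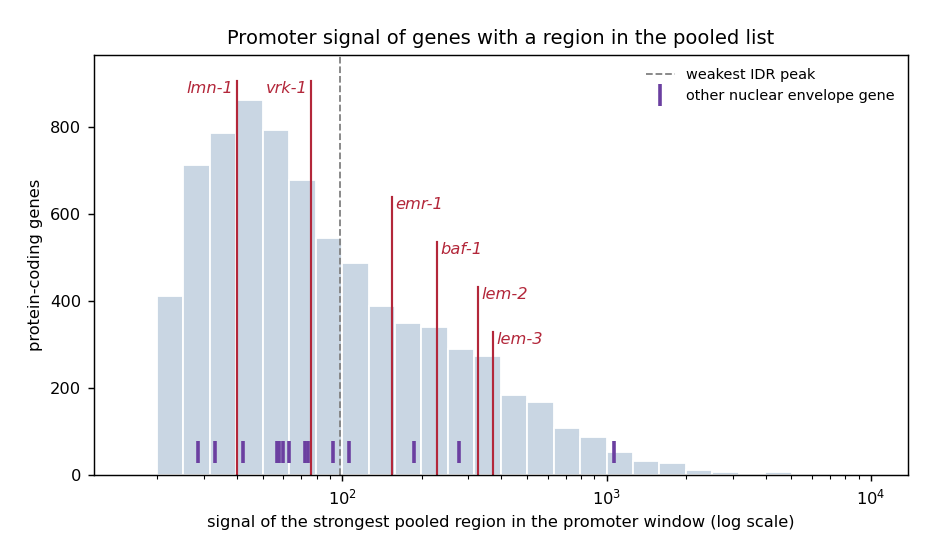
Number of protein-coding genes (y axis) by the signal of the strongest pooled region in the promoter window (x axis, log scale), for the 7600 genes with such a region, with the 6 genes as labelled lines, 14 other nuclear envelope genes as short ticks and the weakest IDR peak as a dashed line. Lines for emr-1, baf-1, lem-2 and lem-3 lie right of the dashed line, those for vrk-1 and lmn-1 left of it.

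A list of 16 other nuclear envelope genes was set beside the 6, among them the SUN and KASH genes that link the nucleus to the cytoskeleton and the genes for envelope closure. Of these, 4 were bound (25%, Wilson 95% interval 10.2% to 49.5%), namely chmp-7, lem-4, nemp-1 and unc-84, against 14.3% of all genes. These genes too were picked by name, so the interval is no test against that share. A pooled region lay in the window of 14 of the 16 (87.5%), against 38.1% of all genes. The median strongest pooled signal of the 16 was 61.2. The difference from the 6 lamina genes was not tested.

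The strongest was chmp-7, whose product brings the ESCRT membrane sealing machinery to the reforming envelope. Its peak (chrII:9054664-9054942) had a signal of 1069, rank 86, with 505 in replicate 1 and 570 in replicate 2, and a CHR element 3.5 bp from the summit. The gene of LEM-4, which opposes VRK-1 on BAF, had a peak (chrIV:854405-854558) with 277, rank 956, 106 in replicate 1 and 173 in replicate 2. It had neither motif within 50 bp, lay in an intron of lem-4 at -128 bp from 1 of its 2 annotated 5′ ends, and was also in the window of Y55F3BR.11. The nemp-1 peak (chrIII:472122-472266, signal 187, 113 and 72.9 in the replicates), shared with the window of magu-1, had an E2F site and a CHR element 9 bases apart, the same number as at lem-2.

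The SUN gene unc-84, on X, had 2 weak peaks, with signals of 106 (243 bp downstream of the 5′ end) and 102 (at -645 bp), near the weakest IDR peak. Replicate 2 placed them at ranks 4752 and 4643, outside its 3449 strongest regions. The germline SUN gene sun-1 was just below the filter, at 92.2 and rank 3723, and the region had an E2F site and a CHR element within 50 bp. Its rank was 7362 in replicate 1 and 2787 in replicate 2, so like vrk-1 it was called by replicate 2 alone. The gene of its KASH partner, zyg-12, had 72.7, with an E2F match centred 3 bp and CHR matches 8.5 and 11.5 bp from the summit. The replicates differed at zyg-12, with 21.7 and rank 15917 in replicate 1 and 47.1 and rank 4032 in replicate 2. Of the rest, unc-83, anc-1, kdp-1, samp-1, cec-4, lpin-1, cnep-1 and ooc-5 had pooled regions between 28.4 and 74.1, and the torsin genes tor-1 and tor-2 had none in the window in any list.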

How the data were processed

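Per the labels and the deposited file lists, the authors made 3 relaxed region lists (replicate 1, replicate 2 and pooled) from ce11 alignments and a control, and an optimal IDR list from these. Aligner, peak caller and IDR cutoff, each not given in the sources used here, could shift which regions passed. Each deposited region holds a signal value from the caller, a −log10 q value and a summit offset. The 3449 IDR peaks were exactly the strongest pooled regions. Most of them (97.2%) shared the highest deposited −log10 q value, so signal was used for ranking. Coordinates were made 1-based. The software was Python 3.11.15, numpy 2.4.6, scipy 1.17.1, pandas 2.3.3 and matplotlib 3.10.9. Genes came from Ensembl release 115 and sequence from the RefSeq WBcel235 genome, whose chromosome lengths hold all regions. A replicate region matched an IDR peak where they shared 50% or more of the shorter region. Window and motif code was tested on simulated data. The labels call the 2 libraries biological replicates, and no p-value was computed from them. The text names all 6 members, genes sharing their peaks, bound genes of the envelope list, and the most similar gene of each bound member. Envelope genes without a peak, genes next to the members and trt-1 were named after values were seen. The members and lists were chosen with earlier results of these data known. Alternatives were other windows, other assignments, the strongest 1724 peaks, other motif distances, and each replicate left out.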

Additional observations from a re-analysis of the deposited data

How the results depend on the processing

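The count of 4 bound genes among the 6 held with windows of 500 bp upstream to 100 bp downstream and of 2000 bp to 500 bp, with coding transcripts alone, with any overlap, and with peaks assigned to the nearest gene alone. It was 3 among the strongest 1724 peaks, where emr-1 was lost, and 4 to 5 with either replicate left out. The gene gained without replicate 1 was vrk-1, whose strongest window region had rank 3313 in replicate 2. In replicate 1 the strongest had rank 11428 at another place, and the region at the same place had rank 17863. The cause was not tested. The other envelope genes numbered 3 to 6 across these settings. The share of all genes bound was 11.5% with the narrow window, 17.4% with the wide window, 14.9% with any overlap, 10.6% with nearest genes, 8.91% with the strongest 1724 peaks, and 13.8% to 14.4% with a replicate left out. A CHR element lay within 25 bp of the summit at 1 of the 4 peaks, lem-3, and within 100 bp at 3, with emr-1 added. E2F sites were at 2 peaks within 25 bp and at 3 within 100 bp. No paired analysis was possible because there is only 1 group. Read depth is unknown, so no limit on the undetected binding at lmn-1 can be given.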
